A study of Mus musculus with 10 samples.

Results

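Pnpla3, Lpin1, Cds1 and Etnppl encode enzymes of glycerolipid and phospholipid metabolism, and their mRNA was followed in livers of male mice with Affymetrix MG_U74Bv2 arrays. The 4 genes, of 7542 named on the array, were taken by symbol, with every probe set that the platform annotation gives to exactly 1 of them. This gave 6 probe sets, namely 2 for Pnpla3, 2 for Cds1, 1 for Lpin1 and 1 for Etnppl. The genes were picked because earlier work on these arrays had called them. Pnpla3 and Lpin1 were picked from TgSREBP-1a against wild type and against TgSREBP-2, Cds1 from TgSREBP-2 against wild type and against TgSREBP-1a, and Etnppl from TgSREBP-2 against wild type and from the wild type pools. Values in those comparisons, and in those that share arrays with them, are therefore descriptions without a test. Loss of SCAP was tested, with the reservation that for Etnppl its wild type arrays also entered the choice.

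The transgenic study used male TgSREBP-1a and TgSREBP-2 mice, which overexpress human SREBP-1a or SREBP-2 in a nuclear, constitutively active form, and male wild type littermates. These mice were 12 to 16 weeks old, and all 3 groups, controls included, were kept for 2 weeks on food high in protein and low in carbohydrate, so that the transgenes were strongly expressed. The labels used here do not name the promoter that drives them. The Scap study used male Scap-/-;MX1-Cre mice and wild type controls of 10 to 12 weeks on Teklad chow. Both of its groups had 4 injections of polyinosinic-polycytidylic acid, which induces the Cre recombinase, and livers were taken 14 days after the last. The MX1 promoter answers to interferon and is not specific to hepatocytes. In each group the RNA of 5 livers was combined into 1 pool of 20 µg, and the pool was hybridised to 2 arrays. The duplicates therefore measure hybridisation error, and no value below carries the spread between mice. In RNA of whole liver, fewer cells of a type and less RNA per cell cannot be told apart.

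Phosphatidic acid is the branch point of glycerolipid synthesis. Lipins such as Lpin1 remove its phosphate and make diacylglycerol, from which triglyceride, phosphatidylcholine and phosphatidylethanolamine are formed, and Lpin1 also acts in the nucleus as a transcriptional coregulator. Cds1 instead converts phosphatidic acid to CDP-diacylglycerol, the precursor of phosphatidylinositol and cardiolipin. Pnpla3 sits on lipid droplets and remodels their lipids, and Etnppl breaks down phosphoethanolamine, an intermediate of phosphatidylethanolamine synthesis. SREBP-1a drives genes of fatty acid and of cholesterol synthesis, SREBP-2 mainly those of cholesterol synthesis, and SCAP is needed for the activation of both.

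Values are log2 expression levels, in which a difference of 1 is a doubling. Duplicate arrays correlated between 0.987 and 0.994 over 12411 probe sets. In the Scap study all 4 arrays had their best match in the opposite group and not in their duplicate, and the second TgSREBP-2 array was closer to the second wild type array (0.991) than to its own duplicate (0.989). The liver genes Apoa1 and Hnf4a were brighter than 99.99% and 99.8% of probe sets. The brighter Scap probe set read 7.94 and 7.75 in Scap-/- and 9.24 and 8.89 in its wild type pool. It fell by 1.22 ± 0.18 (limma standard error, adjusted p = 0.0175). The dimmer Scap probe set, below most others on the array, read 3.56 and 3.63 against 3.37 and 3.58. Their position relative to the deletion was not analysed here.

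The sequence before each gene's start is shown because Pnpla3 and Lpin1 were high in the same pools while Cds1 and Etnppl were not. All 4 genes had an entry among RefSeq's promoters of build GRCm38.p6, and the 250 bases before the listed start are printed 5′ to 3′ on the gene's own strand. They lie at chr15:84167566-84167815 on the plus strand (Pnpla3), chr12:16610967-16611216 on the minus strand (Lpin1), chr5:101764880-101765129 on the plus strand (Cds1) and chr3:130617198-130617447 on the plus strand (Etnppl, the upstream of its 2 listed starts). The starts listed for Pnpla3, Lpin1 and Cds1 lie inside the loci as RefSeq draws them, so that other transcripts begin upstream of the listed start. For Pnpla3 and Cds1 the locus begins within the printed window, at 84167776 and 101765093. The Lpin1 locus, on the minus strand, begins at 16653903, far upstream of its printed window. The sequence before that end of Lpin1 was not searched. Capitals mark matches to the motifs searched.
Pnpla3: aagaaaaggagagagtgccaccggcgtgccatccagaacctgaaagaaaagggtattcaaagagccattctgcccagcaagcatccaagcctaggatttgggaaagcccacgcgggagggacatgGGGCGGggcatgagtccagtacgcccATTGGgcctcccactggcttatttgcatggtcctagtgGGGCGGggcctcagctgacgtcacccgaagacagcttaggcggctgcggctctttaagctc
Lpin1: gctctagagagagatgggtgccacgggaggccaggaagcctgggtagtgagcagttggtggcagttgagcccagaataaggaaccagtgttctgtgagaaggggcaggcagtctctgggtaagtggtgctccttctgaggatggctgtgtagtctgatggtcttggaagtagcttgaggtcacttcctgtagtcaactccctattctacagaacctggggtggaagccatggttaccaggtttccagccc
Cds1: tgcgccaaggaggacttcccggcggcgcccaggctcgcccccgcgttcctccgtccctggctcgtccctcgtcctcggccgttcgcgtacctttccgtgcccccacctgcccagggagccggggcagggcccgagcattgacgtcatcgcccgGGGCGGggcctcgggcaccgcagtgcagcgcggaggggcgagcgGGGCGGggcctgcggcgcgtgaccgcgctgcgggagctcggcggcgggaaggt
Etnppl: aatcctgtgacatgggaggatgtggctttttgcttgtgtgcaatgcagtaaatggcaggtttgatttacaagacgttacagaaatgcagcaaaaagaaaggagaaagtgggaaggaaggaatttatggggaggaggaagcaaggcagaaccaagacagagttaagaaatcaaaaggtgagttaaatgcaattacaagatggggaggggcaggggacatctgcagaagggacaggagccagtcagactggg

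Each window was searched on both strands for 5 motifs. TCACNCCAC and its looser form TCANNCCAC, which includes every match of the first, stand for the sterol regulatory element that SREBPs bind. Neither occurred in any of the 4 windows. Among all 32851 listed windows of this length, 1.05% held the first and 3.52% the second. The E-box CACGTG, found in 6.02% of all windows, was also without a match in the 4. The NF-Y motif CCAAT (33.8% of all windows) occurred once before Pnpla3, on the minus strand, with its first printed base 99 bases before the start. The Sp1 motif GGGCGG (32.7% of all windows) occurred at 125 and 61 bases before the Pnpla3 start and at 97 and 53 bases before the Cds1 start. The windows of Lpin1 and Etnppl held no match to any of the 5. These matches describe the letters of short windows only.

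Pnpla3 was high in TgSREBP-1a and at one level in the other 4 pools. Its brighter probe set read 8.31 and 7.86 in TgSREBP-1a, against 6.63 and 6.89 in wild type of the transgenic study and 6.67 and 6.87 in TgSREBP-2. In the Scap study it read 6.76 on both wild type arrays and 6.55 and 6.74 in Scap-/-. The lower TgSREBP-1a array thus stood 0.97 above the higher wild type array, and the other 4 groups overlapped each neighbour in order. TgSREBP-1a was higher than its wild type by 1.33 ± 0.15 (2.51-fold, 95% interval 1.98 to 3.19) and higher than TgSREBP-2 by 1.32 ± 0.15 (2.49-fold).

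The second Pnpla3 probe set repeated this pattern at a lower brightness. It read 7.91 and 7.47 in TgSREBP-1a, against 6.32 and 6.17 in its wild type pool and 6.57 and 6.25 in TgSREBP-2, with 6.36 and 6.51 in wild type of the Scap study and 6.21 and 6.41 in Scap-/-. The separation of TgSREBP-1a from its wild type was 1.15, and the difference 1.45 ± 0.16 (2.72-fold). Between the probe sets the Pearson r over the 10 arrays was 0.96. TgSREBP-2 differed from wild type by 0.01 (interval -0.33 to 0.35) on the brighter and 0.17 (-0.19 to 0.52) on the dimmer probe set. The size of its TgSREBP-1a difference placed the brighter probe set at rank 55 and the dimmer one at rank 45 among 12411 probe sets ordered from the largest rise.

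Lpin1, measured by 1 probe set, was high in TgSREBP-1a too, and its level also differed between the studies. It read 9.38 and 9.13 in TgSREBP-1a, 8.14 and 7.76 in its wild type pool, and 7.92 and 7.85 in TgSREBP-2. It read 7.17 and 6.49 in wild type of the Scap study and 7.38 and 6.94 in Scap-/-. The arrays formed 3 tiers, with TgSREBP-1a on top, the other groups on the high protein diet overlapping below it, and the chow groups overlapping at the bottom. TgSREBP-1a stood above its wild type by 1.30 ± 0.22 (2.47-fold, interval 1.76 to 3.47) and above TgSREBP-2 by 1.37 ± 0.22 (2.58-fold).

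In both wild type pools and in Scap-/- the Lpin1 duplicates spread more widely than those of Pnpla3. Their SD was 0.48 in wild type of the Scap study. They spread less in TgSREBP-1a (SD 0.18, against 0.32 for the brighter Pnpla3 probe set) and in TgSREBP-2 (0.05 against 0.14). The standard error of 0.22 pools the spread of all 5 groups. The call against wild type ended without the second wild type array (1.12) or without the first TgSREBP-1a array (1.18), and that against TgSREBP-2 without the first TgSREBP-1a array (1.24) or the first TgSREBP-2 array (1.40). TgSREBP-2 differed from wild type by -0.06 (interval -0.55 to 0.43). The wild type pool on the high protein diet read 1.12 ± 0.22 above the one on chow (2.17-fold), and their arrays did not overlap. These pools differ in diet, age, injections and breeding, which cannot be told apart.

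Cds1 had another profile, being higher in TgSREBP-2 and in no other pool. It was dim, with 34.5% of probe sets below the brighter and 30.7% below the other of its probe sets. The brighter one gave 5.70 and 5.96 for TgSREBP-2 against 4.82 and 4.76 for its wild type pool, 4.60 and 4.92 in TgSREBP-1a, 4.56 and 4.66 in wild type of the Scap study, and 4.70 and 4.75 in Scap-/-. Both TgSREBP-2 arrays lay above the other 8, by at least 0.77. The difference from wild type was 1.04 ± 0.13 (2.06-fold, interval 1.69 to 2.51), and TgSREBP-1a lay below TgSREBP-2 by 1.07 ± 0.13 (2.10-fold).

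The dimmer Cds1 probe set also had TgSREBP-2 on top, with smaller steps, and the remaining groups in another order. It gave 5.18 and 5.08 for TgSREBP-2 against 4.58 and 4.69 for wild type, 4.73 and 4.72 in TgSREBP-1a, 4.58 and 4.65 in wild type of the Scap study, and 4.66 and 4.72 in Scap-/-. TgSREBP-2 was higher by 0.50 ± 0.09 (1.41-fold), under the 1.5-fold minimum. The r between the probe sets was 0.92 over the 10 arrays. The call on the brighter probe set ended without the first wild type array (1.07) or the second (1.01). Without the second TgSREBP-2 array, which resembled wild type, the difference was 0.91. In TgSREBP-1a, Cds1 differed from wild type by -0.03 (interval -0.31 to 0.26) on the brighter and by 0.09 (-0.11 to 0.30) on the dimmer probe set.

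Etnppl, on 1 probe set, was lower in both transgenic lines than in their wild type pool. That pool gave 9.30 and 9.01, followed by TgSREBP-2 with 8.03 on both arrays, then 7.77 and 7.67 in wild type of the Scap study, 7.77 and 7.47 in Scap-/-, and 7.14 and 7.13 in TgSREBP-1a. The chow groups overlapped each other, and every other step in this order was free of overlap. TgSREBP-1a was below wild type by 2.02 ± 0.13 (4.06-fold, interval of the log2 difference -2.30 to -1.74). TgSREBP-2 was below wild type by 1.13 ± 0.13 (2.19-fold), and TgSREBP-1a below TgSREBP-2 by 0.89 ± 0.13 (1.85-fold).

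The difference of Etnppl in TgSREBP-1a was thus larger than in TgSREBP-2, against the same 2 wild type arrays. It ranked 14 among the falls of 12411 probe sets in TgSREBP-1a and 8 in TgSREBP-2. The call of the difference between the lines ended without the first TgSREBP-1a array (-0.90). Etnppl was also higher in the wild type pool on the high protein diet than in the chow-fed one, by 1.44 ± 0.13 (2.70-fold), at rank 5. TgSREBP-1a read lower than both chow groups, by at least 0.33 between single arrays.

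**Figure D1:**
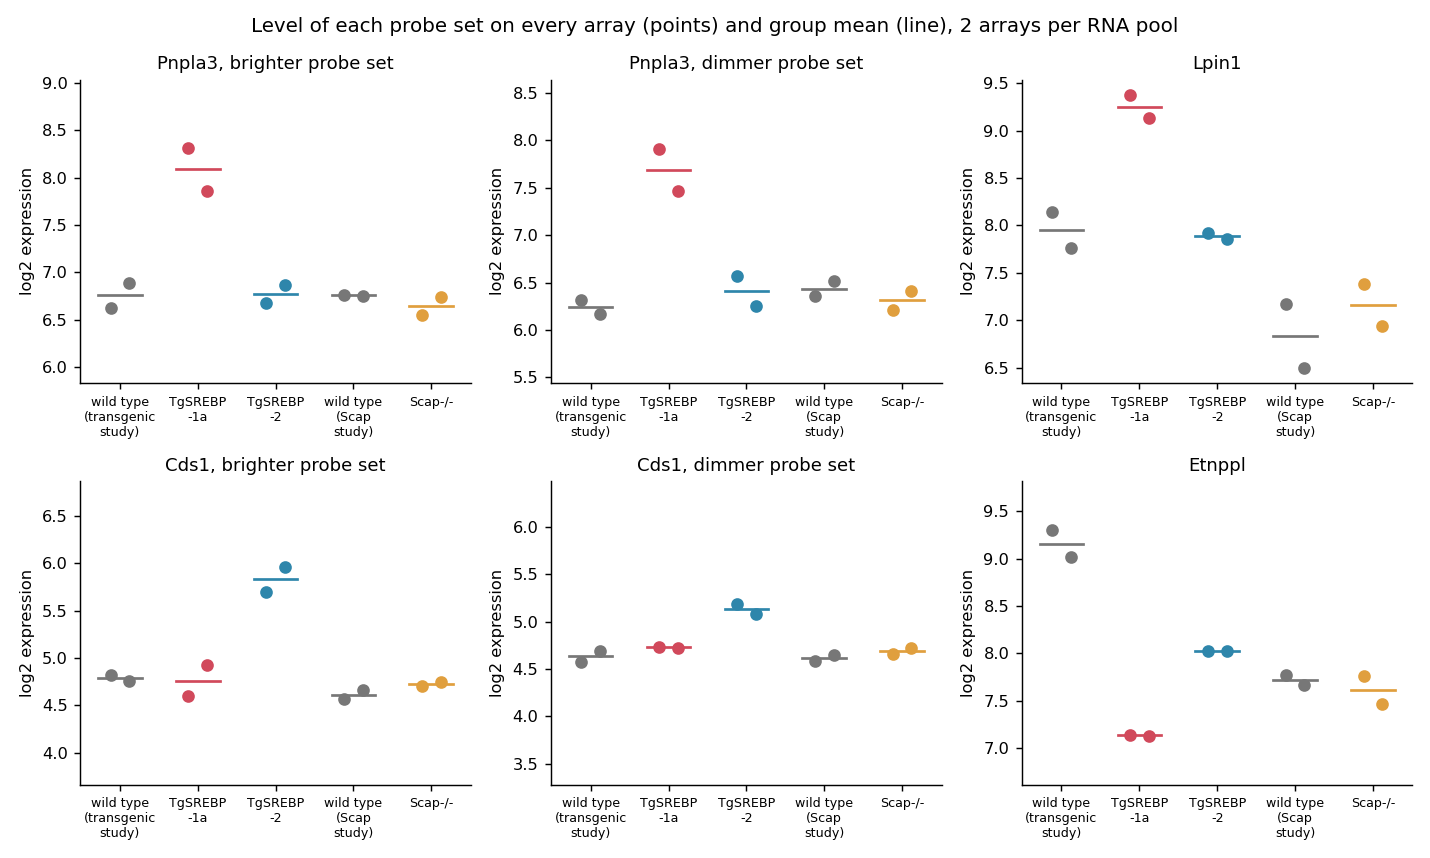
Log2 expression of the 6 probe sets on every array, with the group mean as a line, over 2 arrays for each of 5 RNA pools. All panels span the same height. TgSREBP-1a stands alone on top for Pnpla3 and Lpin1, TgSREBP-2 for Cds1, and their wild type pool for Etnppl.

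Limma called a probe set at an adjusted p under 0.05 with a change of at least 1.5-fold. Of the 6 probe sets, 3 were called higher and 1 lower in TgSREBP-1a, where 2.18% of all probe sets were called (1.36% higher, 0.814% lower). In TgSREBP-2, where 0.5% were called (0.338% higher, 0.161% lower), 1 was higher and 1 lower. Between the lines 3 were higher in TgSREBP-1a and 2 lower, against 1.86% of all called (1.18% higher, 0.677% lower). Between the wild type pools 1 was higher in the transgenic study, against 0.508% of all called (0.153% higher, 0.355% lower). These comparisons chose the genes, so nothing is read from their counts.

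Loss of SCAP was the comparison whose arrays did not choose Pnpla3, Lpin1 or Cds1. In it 0 of the 6 probe sets were called by limma, where 0.274% of all probe sets were called (0.0161% higher, 0.258% lower), and 0 of the 6 had an unadjusted p under 0.05 (7.74% of all probe sets). Pnpla3 differed by -0.11 ± 0.15 (limma, adjusted p = 0.86) on its brighter probe set, with a 95% interval from 0.730 to 1.17 times wild type. On its other probe set it differed by -0.12 ± 0.16. A fall of Pnpla3 as large as its 2.51-fold difference in TgSREBP-1a lies outside this interval, which covers hybridisation error only. That 2.51-fold value comes from a comparison that chose Pnpla3 and from mice on another diet.

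Lpin1 read higher without SCAP by 0.33 ± 0.22 (limma, adjusted p = 0.71), with an interval from 0.893 to 1.76 times wild type and with overlapping arrays. Its value moved between -0.01 and 0.67 when single arrays were left out. Cds1 differed by 0.11 ± 0.13 (adjusted p = 0.834), from 0.888 to 1.32 times wild type. Etnppl differed by -0.10 ± 0.13 (adjusted p = 0.843), from 0.768 to 1.13 times wild type. Leaving out each array of this study, where groups and duplicates were hard to tell apart, gave no call for any of these genes.

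**Figure D2:**
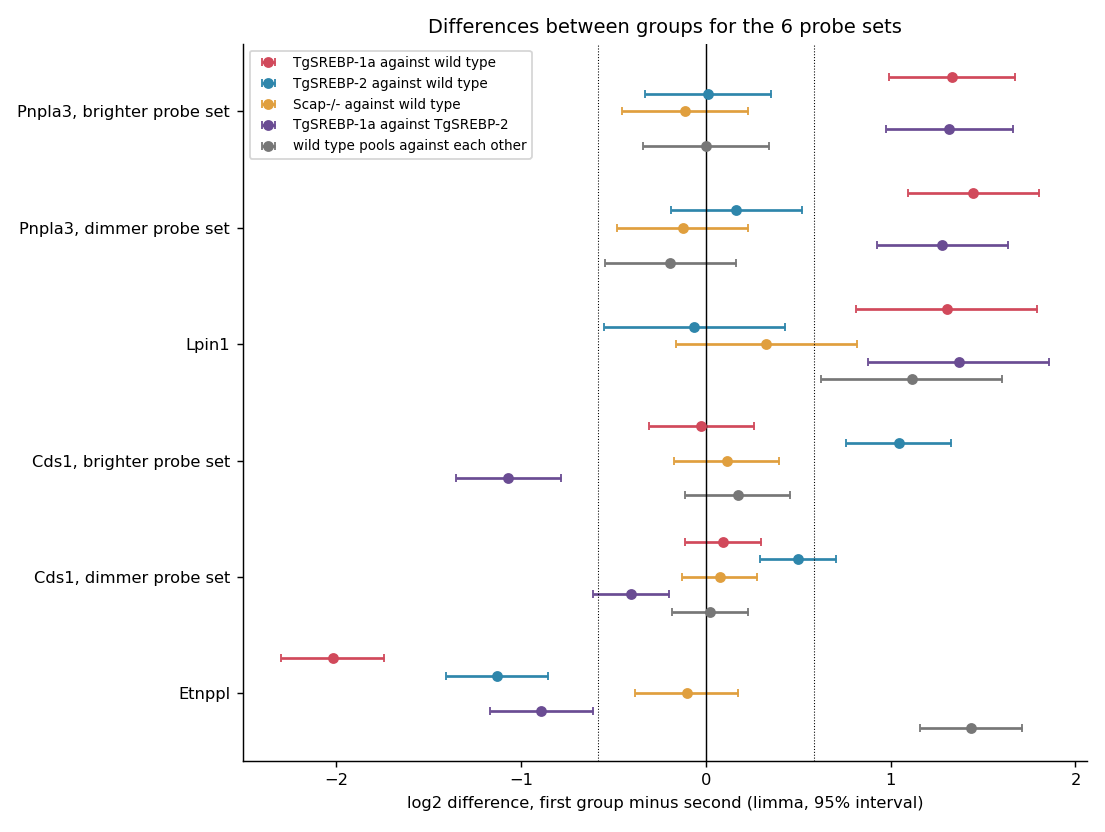
Log2 differences, first group minus second, with 95% limma intervals over 2 arrays per group (the wild type pools as transgenic study minus Scap study). Dotted lines mark 1.5-fold. All 6 intervals of Scap-/- against wild type include 0, while Etnppl lies at -2.02 and -1.13 in the transgenic lines and at 1.44 between the wild type pools.

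Markers of other cell types moved with some of these groups. Levels of a marker list are sums on the linear scale over its measured genes. Some markers were dim, among them Krt7, Ms4a1 and Timd4 with mean log2 levels of 3.24, 3.53 and 3.62. Of 12 pancreatic acinar genes 3 were measured, and their sum was 227 and 228 in TgSREBP-1a, 2642 and 1970 in its wild type pool, and 4228 and 3217 in TgSREBP-2. Ctrc, an acinar protease gene, rose in TgSREBP-2 by 1.51 (limma, adjusted p = 8.9e-05), and Cpb1 and Cela3b fell in TgSREBP-1a and in Scap-/-. The acinar sum was thus highest where Cds1 was highest, and the part of acinar RNA in the Cds1 difference was not tested. In TgSREBP-1a, where the sum was lowest, Cds1 read as in wild type. Cds1 was dim in both, so a lower level may not show. The sum fell there and in Scap-/- through Cpb1 and Cela3b, while Ctrc differed by only -0.22 and -0.13. The sum was 1114 and 912 in wild type of the Scap study and 269 and 260 in Scap-/-, where the difference of Cds1 was 0.11 and that of Etnppl -0.10.

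The 2 measured of 9 Kupffer cell and macrophage genes summed to 64.2 and 69.3 in TgSREBP-1a against 40.5 and 41.4 in wild type. Cd163 was called higher, while the other gene, the dim Timd4, differed by 0.07. The 5 measured of 10 sinusoidal endothelial genes summed to 905 and 844 against 780 and 731.0, with Lyve1 called higher. The 3 measured of 12 hepatocyte genes summed to 9310 and 8567 against 13047 and 11731, with C8a called lower. The part of these shifts in the values of Pnpla3, Lpin1 and Etnppl in TgSREBP-1a was not tested. The hepatocyte sum was also low on the second TgSREBP-2 array, at 6437 against 12072 on the first. Most of this sum is Apoa1, which read 12.22 on the second and 13.32 on the first. Hnf4a read 10.25 and 10.36 on them, so the low sum is mainly that of 1 probe set. Etnppl read 8.03 on both of these arrays, and Cds1 5.70 on the first and 5.96 on the second. Of the cholangiocyte, stellate cell and lymphocyte lists 2 genes each were measured, and limma called 0 of them in the 5 comparisons, with 0 at an unadjusted p under 0.05 in TgSREBP-1a, TgSREBP-2 and Scap-/-. Of the adipocyte genes 2 were measured, and Car3 was called lower in wild type of the transgenic study than in that of the Scap study. Of 6 genes listed for erythroid cells only Tfrc was measured, and it was called higher in TgSREBP-2. No change in erythroid cells is read from this 1 gene.

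Around the 4 enzymes, 60 of 124 other listed genes of glycerolipid and phospholipid metabolism were measured, each by its brightest probe set. In TgSREBP-1a 1 of 60 rose and 0 fell by limma, against 2.18% of all probe sets called. Of the 60, 14 had an unadjusted p under 0.05, a larger share than the 10.3% of all probe sets. The 60 are brightest probe sets of their genes, while all probe sets include the dimmer ones. Without a fold minimum 4 passed, beside 2.73% of all. Their median log2 difference was 0.05, beside -0.02 over all probe sets. The gene that rose was Pi4ka, a phosphatidylinositol 4-kinase, which uses the lipid made from CDP-diacylglycerol. It read 7.38 and 7.31 in TgSREBP-1a against 6.76 and 6.32 in wild type, a rise of 0.81 ± 0.13 (limma, adjusted p = 0.00799). Its probe set is of a type shared within a sequence family. The call ended without the second wild type array, without the first or without the second TgSREBP-1a array, with values from 0.58 to 1.03 over all alternatives. Without the second TgSREBP-1a array the gene that passed was Plpp2, a lipid phosphate phosphatase (0.66).

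In TgSREBP-2 and in Scap-/- 0 of the 60 were called by limma, with 7 and 5 at an unadjusted p under 0.05 (7.92% and 7.74% of all probe sets) and medians of 0.02 and -0.03 (-0.02 and 0.02 over all probe sets). Between the lines 0 were called by limma, and 16 of the 60 had an unadjusted p under 0.05, a larger share than the 14.7% of all probe sets. Between the wild type pools 2 were called and 8 had an unadjusted p under 0.05 (9.7% of all), and both calls were lower in the transgenic study. Agpat2, which acylates lysophosphatidic acid to phosphatidic acid, was lower by 0.95 ± 0.15 (limma, adjusted p = 0.0234). Pnpla7, a lysophospholipase of the patatin family, was lower by 1.32 ± 0.24 (limma, adjusted p = 0.0416) on its brighter probe set and by 0.49 on the other, which did not pass. Both of these calls held in 3 of 10 cases with 1 array left out. They held without either Scap-/- array and without the second wild type array of the Scap study, and ended without each of the other 7 arrays.

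By role, the acyltransferases that lead to phosphatidic acid (8 of 12 measured) had a median of -0.02 in TgSREBP-1a and -0.03 in TgSREBP-2, and the 2 measured genes of triglyceride formation 0.12 and -0.09. Mogat2, a monoacylglycerol acyltransferase and the brighter of these 2, differed by 0.04 and -0.10. For the supply of glycerol 3-phosphate, Gpd2 differed by 0.32 in TgSREBP-1a and -0.23 in TgSREBP-2, without a call. Among 6 diacylglycerol kinases the brightest, Dgkz, differed by 0.31 and 0.14. Among the lipases, Ces1g, a carboxylesterase, differed by 0.12 and -0.44. The brightest phosphatase outside the lipins, Plpp3, differed by 0.03 and -0.30.

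The CDP-diacylglycerol branch beyond Cds1 had 5 measured genes, with medians of 0.13 in TgSREBP-1a and 0.04 in TgSREBP-2. The brightest of them was Taz, the cardiolipin-remodelling tafazzin, at -0.01 and 0.04. In the ethanolamine and serine branch Pcyt2, which makes CDP-ethanolamine, differed by 0.07 in TgSREBP-1a and 0.24 in TgSREBP-2, while Etnppl beside it was at -2.02 and -1.13. Of 3 measured genes on choline, Chdh, choline dehydrogenase, was brightest and differed by 0.00 and -0.37. Mboat7 led the 5 lysophospholipid acyltransferases at 0.18 and 0.22. The 8 measured phosphoinositide enzymes, among them Pi4ka, had a median of 0.27 in TgSREBP-1a and 0.17 in TgSREBP-2. In the list of phospholipases, where Pnpla7 was brightest, the median was 0.07 and -0.05. By the brightest probe set of each gene, Pi4ka alone of the 60 passed in a transgenic line. The dimmer probe set of Slc44a1, a gene of the choline list, read higher in TgSREBP-1a by 1.36 ± 0.12, while the brighter one differed by 0.13. The dimmer one is named as the profile most like Pnpla3 over these same arrays, so its difference is a description without a test.

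**Figure D3:**
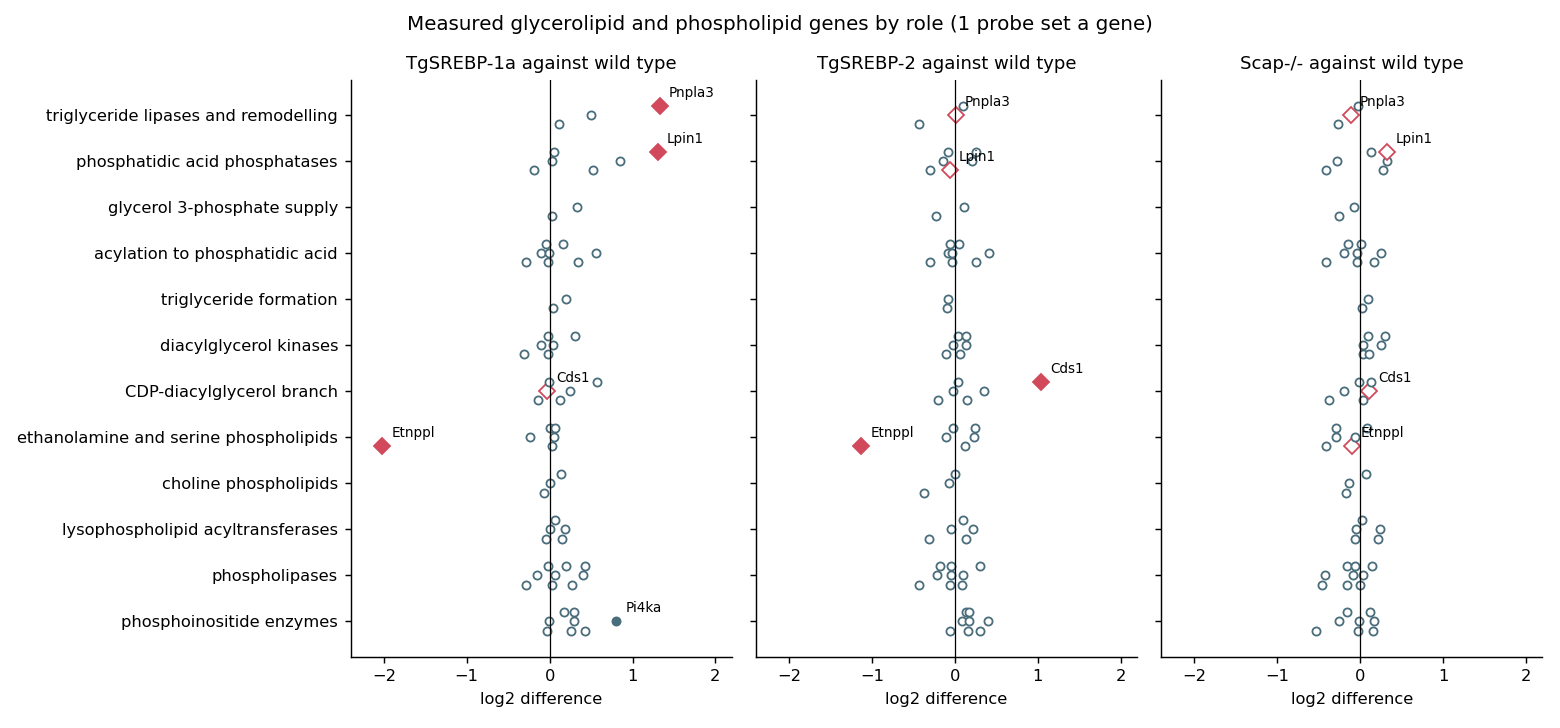
Log2 differences of the 60 other measured genes (circles) and of Pnpla3, Lpin1, Cds1 and Etnppl (diamonds) by role, in TgSREBP-1a, TgSREBP-2 and Scap-/- against wild type, with filled symbols for calls. Besides the 4 enzymes, Pi4ka at 0.81 in TgSREBP-1a is the 1 filled symbol, and Scap-/- has 0.

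The close relatives of the 4 enzymes were looked at where measured. Lpin2, the other lipin on the array, read 9.61 and 9.45 in TgSREBP-1a, 8.81 and 8.55 in its wild type pool, 8.93 and 8.94 in TgSREBP-2, 7.75 and 7.20 in wild type of the Scap study, and 7.59 and 6.80 in Scap-/-. As for Lpin1, TgSREBP-1a was on top and the chow groups overlapped at the bottom, but TgSREBP-2 lay above its wild type pool without overlap. The difference of 0.85 ± 0.24 in TgSREBP-1a (limma, adjusted p = 0.122) and that of 1.20 ± 0.24 between the wild type pools (adjusted p = 0.0684) did not pass. In 5 of 17 alternatives each of them did.

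Cds2, which catalyses the same step as Cds1, had 2 probe sets, and neither was called in TgSREBP-2. On the brighter one TgSREBP-2 gave 8.15 and 8.24 and wild type 8.41 and 8.37, a difference of -0.20 ± 0.09 (limma, adjusted p = 0.63). The other differed by -0.02 there and by 0.54 in TgSREBP-1a (adjusted p = 0.139). Phykpl, the closest relative of Etnppl, was dim and differed by 0.06 in TgSREBP-1a and 0.12 in TgSREBP-2, where Etnppl was at -2.02 and -1.13. No probe set carried Lpin3 or Pnpla2 as its only symbol.

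The profiles most like each enzyme were ranked by Pearson r over the 10 arrays among probe sets of other genes whose group means ranged over at least 1 log2 unit (297 for Pnpla3 and 298 for each of the others). The arrays share their pools in pairs, so r is a description. For Pnpla3 the closest was Slc44a1, a choline transporter (r = 0.98), followed by the lactosylceramide synthase B4galt6, Mbnl3, Rassf6 and the zinc transporter Slc39a5 (each 0.97). That Slc44a1 probe set was higher in TgSREBP-1a by 1.36 ± 0.12, whereas the brighter one of the gene, which stands for it in the list above, differed by 0.13. With the mean of both, the difference was 0.75, which is a description as well, since the dimmer one was picked by its profile.

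Lpin1 was followed most closely by the kinase Sgk2 and by Depp1 (r = 0.95), then by the thioesterase Acot2, the ubiquitin ligase Mylip and the lysophospholipid transporter Mfsd2a (0.93). Lpin1 and Pnpla3 themselves had an r of 0.82. For Cds1 the nearest was Ctrc (0.95), the acinar gene named above, with Ywhaq (0.94), Anxa13, Cnot2 and Meg3 (each 0.91) after it. For Etnppl it was Cyp2c23 (0.95), an arachidonic acid epoxygenase, which differed by -1.18 in TgSREBP-1a, -0.68 in TgSREBP-2 and 0.66 between the wild type pools. Ppara, the fatty acid receptor that drives fasting genes, came next (0.89), before Scara5 (0.87), Cpeb4 (0.84) and Tedc2 (0.83). Etnppl had an r of -0.55 with Pnpla3, -0.16 with Lpin1 and 0.11 with Cds1.

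**Figure D4:**
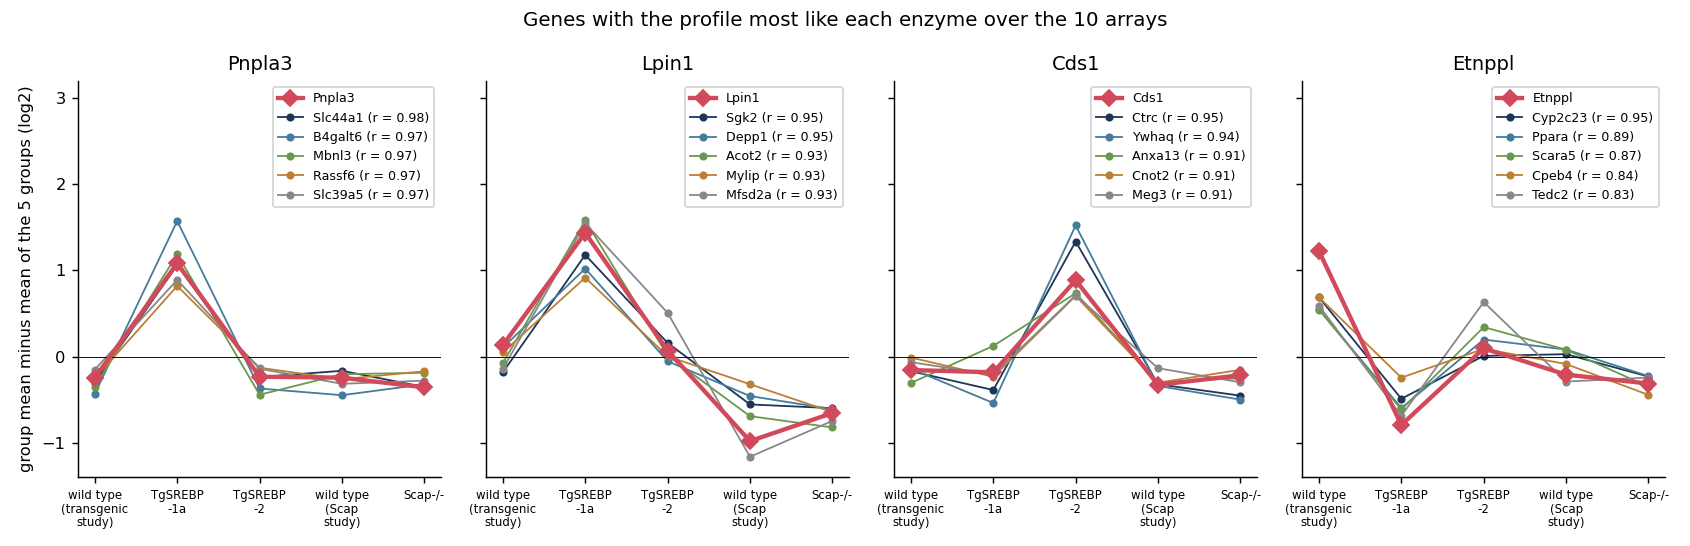
Group means minus the mean of the 5 groups (log2) for each enzyme (red diamonds) and the 5 genes with the highest Pearson r to it over 10 arrays. Genes like Pnpla3 and Lpin1 peak in TgSREBP-1a, genes like Cds1 in TgSREBP-2, and genes like Etnppl in the wild type littermates of both lines, with the exception of Tedc2, which averaged 8.41 there and 8.45 in TgSREBP-2.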

How the data were processed

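The deposited values are log2 expression values per probe set, made with RMA according to the submitters' processing notes, which state no version. RMA corrects background, equalises the arrays and summarises probes, so depth is not a term, and the number of arrays limits the precision. No genome build is given in the sources used here. Of 12477 probe sets, 66 controls were left out. Symbols came from the platform annotation (10581 probe sets with 1, 178 with several, 1652 with none), and an update through RefSeq changed 0.

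Group means of all 10 arrays were fitted together in R 4.3.3 with limma 3.58.1 (lmFit, eBayes), with two-sided Benjamini-Hochberg adjustment over 12411 probe sets and a median standard error of 0.115. Errors are limma standard errors, with 2 arrays per group. The script was tested on simulated data with the spread of the duplicates. It called 38.8% of 1.5-fold, 92.5% of 2-fold and 97.0% of 3-fold changes in TgSREBP-1a, with 4 false calls. A missing call therefore does not exclude a change near 1.5-fold.

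The 4 genes and all lists were chosen with earlier results of these data known. Named were all probe sets of these genes, their relatives, every list gene called in any comparison or else the brightest of its list, called markers, and the 5 most alike profiles. Motifs were counted in RefSeq promoters (GRCm38.p6). Alternatives covered each array left out, a replicate block, fewer arrays, normalization, dim probe sets, variance prior, array weights, thresholds and probe set choice.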

Additional observations from a re-analysis of the deposited data

How the results depend on the processing

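In the comparisons that chose Pnpla3, Lpin1, Cds1 and Etnppl, or share arrays with them, the values under other settings are descriptions and support nothing. With 1 array left out Lpin1 ranged from 1.12 to 1.49 in TgSREBP-1a against wild type and from 1.24 to 1.49 against TgSREBP-2, Cds1 from 0.91 to 1.18 in TgSREBP-2, and Etnppl from -0.90 to -0.88 between the lines, each ending below the threshold in at least 1 case. Lpin1 between the wild type pools, not called with all arrays, was called with the replicate block (1.12), quantile normalization (1.12) and array weights (1.12). It ranged from 0.78 to 1.46 with 1 array left out and was called without the first wild type array of the Scap study. Cds1 was below the filter on dim probe sets and has no value there.

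Of the 60 other pathway genes, the 1 call in TgSREBP-1a became 2 with the replicate block, with only the 4 arrays compared, with array weights and with the mean of a gene's probe sets, 4 without a fold minimum, 0 at a 2-fold minimum and 0 to 2 with 1 array left out. Between the lines the 0 calls became 1 with the replicate block, with quantile normalization and with the mean of probe sets, 2 with only 4 arrays, and 0 to 1 with 1 array left out. Between the wild type pools the 2 calls became 4 with the replicate block, 3 with quantile normalization or array weights, 0 with only 4 arrays, 1 at 2-fold and 0 to 3 with 1 array left out. Over all probe sets the replicate block gave 101 calls in TgSREBP-2 (62 without it), 91 in Scap-/- (34) and 145 between the wild type pools (63), and fits of only 4 arrays gave 5 in Scap-/- and 13 between the pools. With 1 array left out, calls ranged from 142 to 307 in TgSREBP-1a (270 with all), 25 to 124 in TgSREBP-2, 10 to 68 in Scap-/-, 87 to 384 between the lines (231) and 14 to 120 between the pools. Where 1 array was left out, its partner was assumed to vary like the other groups. The hybridisation number is not said to mark a batch. Deviations of first arrays correlated at 0.60 between the groups of the Scap study, 0.41 between wild type and TgSREBP-1a, and 0.06 between wild type and TgSREBP-2. Across the studies they correlated at 0.47 between the wild type pools and at 0.47 between wild type of the Scap study and TgSREBP-1a. Scap-/- correlated at 0.36 with wild type of the transgenic study and at 0.34 with TgSREBP-1a. Pairs with TgSREBP-2 ranged from -0.17 to 0.11. The block therefore stands as an alternative, and its lost or gained calls are no measure of strength.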
